A study of Mus musculus with 8 samples.

Results

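Late thymocyte maturation genes are transcripts that thymocytes gain, or keep high, as they leave the double-positive stage and ripen for export. The 8 genes described here are Cd52, Ms4a4b, Ms4a6b, Slfn2, Cd2, Cd53, Tcf7 and Lef1, found by their symbols in the deposited tables of a mouse thymocyte RNA sequencing study. All 8 are present in both sets of tables, which together list 13073 genes. Double-positive thymocytes carry both coreceptors, CD4 and CD8. After positive selection a thymocyte downregulates immature markers, and over the following days it gains surface proteins of the mature T cell, becomes quiescent and acquires the ability to leave the thymus. TCF-1, the product of Tcf7, and LEF-1 are high-mobility-group DNA-binding factors that are already active in precursors and direct lineage choice after selection, whereas CD52, MS4A4B, MS4A6B and SLFN2 are associated with the ripe or quiescent T cell.

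The study compared 2 genotypes in 2 systems, with 2 libraries in each of the 4 groups. Every group carries loxP-flanked Bcl6 alleles: those labelled KO are Bcl6fl/fl Cd4cre and those labelled WT are Bcl6fl/fl without the recombinase, so a group that has Cd4cre alone, to show what the recombinase does by itself, is not among them. BCL6 is a transcriptional repressor, and a Cd4-driven recombinase acts from about the double-positive stage. In the in vivo system, thymocytes negative for CD4 and CD8 and positive for CD5 and TCRβ were sorted directly, a population the labels call agonist-p. In the in vitro system, sorted double-positive thymocytes of both genotypes were stimulated in culture for 24 h through CD3 and CD28 (8 µg/ml of each antibody), and the cells that had lost both coreceptors (double-negative, DN) were then sorted. The age of the mice is not given. Nor do the labels say that the 2 libraries of a group are of different mice or wells, and every p-value here reflects library-to-library spread that could be purely technical. The in vivo libraries were made by BGI Genomics and the in vitro libraries by Novogene, so levels that differ between systems cannot be told apart from a difference between providers.

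Total counts were 14754440 to 16022736 per library in vivo and 15644567 to 23975636 in vitro. Bcl6, the targeted gene, had FPKM (fragments per kilobase of transcript, scaled to library depth) of 64.6 and 61.0 in the in vitro libraries labelled KO and 24.9 and 21.9 in those labelled WT. The gene as a whole was thus higher, not lower, under the KO label in vitro. In vivo it had 8.81 and 14.4 FPKM under the KO label and 11.5 and 13.9 under the WT label. Because these values pool every exon, they say nothing of the deleted exons alone and leave the labels unchecked, and each direction below is that of KO-labelled over WT-labelled libraries. T cell identity was checked with 12 genes, of which 9 have a row in each system. Cd3e, a chain of the T cell receptor complex, was at 117 and 123 FPKM under the KO label and 119 and 123 under the WT label in vivo. In vitro it was at 93.1 and 88.8 FPKM under the KO label and 116 and 107 under the WT label, a fall of small size (log2 fold change -0.26, SE 0.09; edgeR adjusted p = 0.0364). Of the 9, 4 rose in vitro, with Cd247 (0.70, SE 0.09), Lat (0.51, SE 0.08) and Lck (0.41, SE 0.10) the farthest, Cd3e was the only fall, and none passed in vivo. Of all genes tested, 20.1% rose and 17.7% fell in vitro, and 1.1% passed in either direction in vivo.

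In vitro, all 8 genes were higher in the KO-labelled libraries. The 4 with the largest change were Ms4a6b, Cd52, Ms4a4b and Slfn2, at 2.49-fold to 3.50-fold the WT-labelled level. Cd53 and Lef1 were at 1.93-fold and 1.78-fold, and Tcf7 and Cd2 at 1.28-fold and 1.22-fold. All 8 passed an adjusted p under 0.05 (edgeR quasi-likelihood test over 9658 genes), where 20.1% of all genes passed upward, 17.7% downward and 37.8% in either direction. For all 8 both KO-labelled libraries lay above both WT-labelled libraries in FPKM, which was so for 32.5% of all genes. The median log2 fold change was 1.13 over the 8 genes and -0.0028 over all genes tested. Each of the 8 was at 1 FPKM or more in all 4 libraries, so none entered the test only through the group where it was high. In sorted bulk samples, fewer cells of a type and less RNA per cell cannot be told apart.

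**Figure D1:**
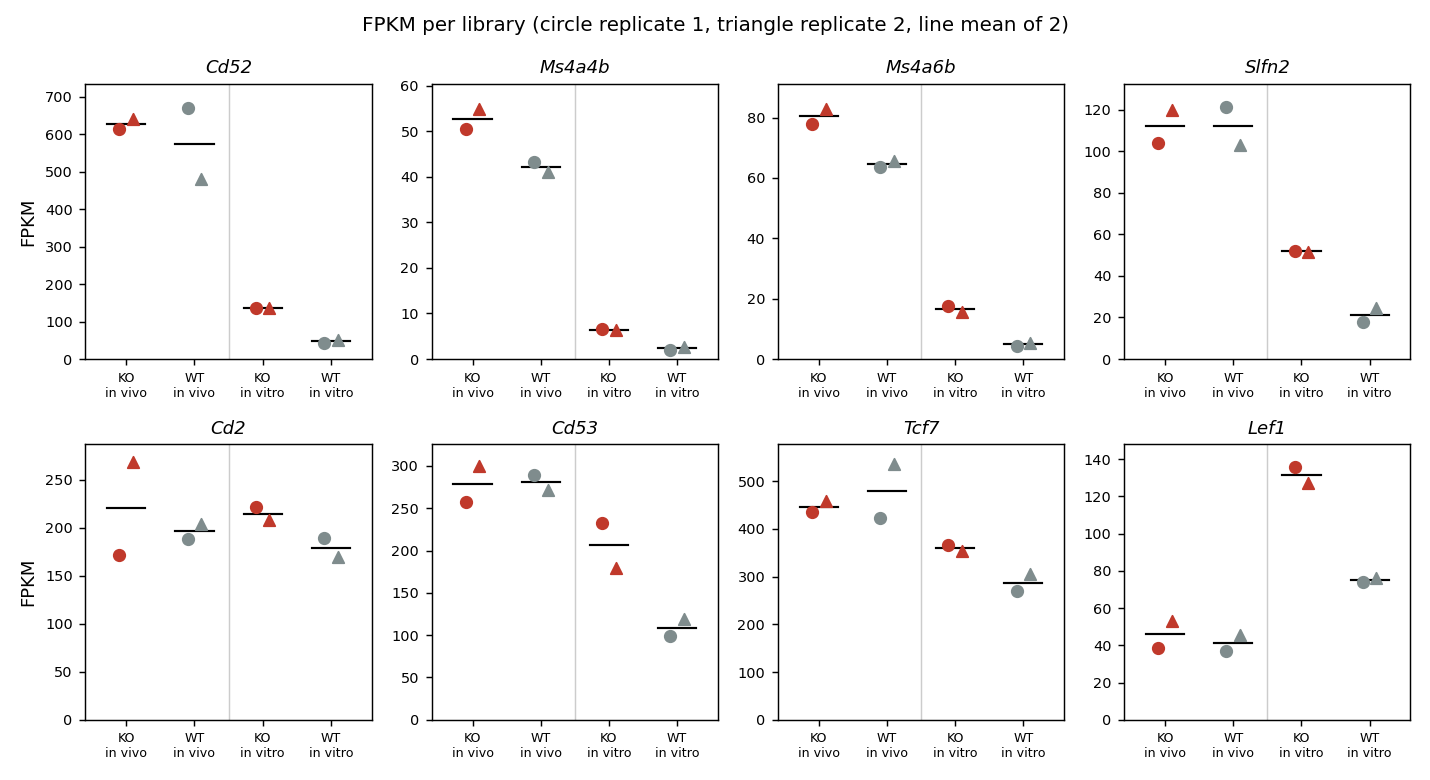
FPKM of each gene in each library (y axis, linear, from 0), with groups labelled KO and WT in vivo and in vitro on the x axis; circles are replicate 1, triangles replicate 2, and lines the mean of 2. In the in vitro panels both KO-labelled points lie above both WT-labelled points for every gene, for example 136 and 136 against 44.0 and 51.0 FPKM for Cd52.

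The MS4A genes encode tetraspanning MS4A proteins, relatives of the B cell antigen CD20. Ms4a6b had 17.6 and 15.6 FPKM in the in vitro KO-labelled libraries, against 4.45 and 5.27 FPKM in the WT-labelled ones. Both KO-labelled libraries were therefore well above both WT-labelled ones, and the rise of 1.81 on the log2 scale (SE 0.11, with 2 libraries per label; edgeR adjusted p = 1.22e-06) was the largest of the 8. Ms4a4b, whose product is found at the surface of naive T cells and associates with costimulatory receptors, had 6.58 and 6.29 FPKM under the KO label and 2.09 and 2.66 FPKM under the WT label. It was the least abundant of the 8 in vitro, resting on 1025 and 1198 counts under the KO label and 440 and 382 under the WT label. Its log2 fold change was 1.47 (SE 0.12; edgeR adjusted p = 6.86e-06).

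Cd52 encodes a very short glycoprotein anchored by glycosylphosphatidylinositol (GPI) that is abundant on mature lymphocytes and is the antigen of the antibody alemtuzumab in humans. It had 136 FPKM in both in vitro KO-labelled libraries, against 44.0 and 51.0 FPKM in the WT-labelled ones. The 2 groups were far apart, and the log2 fold change was 1.55 (SE 0.09; edgeR adjusted p = 1.18e-06). Slfn2 encodes a Schlafen protein needed for T cell quiescence, loss of which leaves mouse T cells in a semi-activated state. Its FPKM was 51.9 and 51.6 under the KO label and 17.9 and 24.7 under the WT label, again without overlap. This was a rise of 1.31 on the log2 scale (SE 0.13; edgeR adjusted p = 2.85e-05).

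Cd53 and Cd2 encode adhesion and membrane-organising proteins. Cd53, a tetraspanin of leukocytes, had 233 and 180 FPKM in the in vitro KO-labelled libraries and 99.0 and 119 FPKM in the WT-labelled ones. The KO-labelled pair was the more spread, at 207 ± 37.4 FPKM (SD, n = 2), yet lay above the WT-labelled pair at 109 ± 14.3 FPKM (SD, n = 2), a rise of 0.95 in log2 (SE 0.13; edgeR adjusted p = 0.000228). Cd2, the receptor for CD48 in mice, had 221 and 208 FPKM under the KO label and 189 and 169 under the WT label. This small gap was 0.29 in log2 (SE 0.09; edgeR adjusted p = 0.0286).

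Of the pair of transcription factor genes, Lef1 changed more in vitro. Lef1 had 136 and 127 FPKM in the KO-labelled libraries and 73.9 and 76.0 FPKM in the WT-labelled ones, or 0.83 higher in log2 (SE 0.10; edgeR adjusted p = 0.000124). Tcf7 had 366 and 354 FPKM under the KO label and 269 and 305 FPKM under the WT label, or 0.35 higher in log2 (SE 0.11; edgeR adjusted p = 0.024). Tcf7 was the most abundant of the 8 genes in vitro on the FPKM scale under both labels. The interval of Lef1 (0.61 to 1.06, 95%) lay above that of Tcf7 (0.12 to 0.59), the only place in the order of the 8 fold changes where neighbouring intervals did not overlap. The calls of Cd2 and Tcf7 depended on the fit. With limma on log2(FPKM + 1) the adjusted p was 0.0905 for Cd2 and 0.0621 for Tcf7, and without KO-labelled replicate 1 it was 0.14 for Cd2 and 0.116 for Tcf7. The Cd2 call was also lost without WT-labelled replicate 2 (adjusted p = 0.178), and the Tcf7 call without KO-labelled replicate 2 (0.0599) and without WT-labelled replicate 1 (0.159).

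The genes lie on 4 chromosomes of the mm10 genome, by the GENCODE vM21 annotation. Ms4a4b (chromosome 19, 11443553 to 11467055) and Ms4a6b (11516512 to 11531256) both lie in the MS4A gene cluster, on the plus strand. Cd2 (101275899 to 101287939), Cd53 (106759921 to 106790149) and Lef1 (131110471 to 131224356) are on chromosome 3, far from one another. Slfn2 (83065112 to 83070678) and Tcf7 (52252371 to 52283014) are on chromosome 11, and Cd52 (134082448 to 134095082) is on chromosome 4. Counts cover whole genes, so long and short TCF-1 and LEF-1 isoforms are pooled. Of all 50-base words in the annotated transcripts, 2.4% for Ms4a4b, 3.57% for Ms4a6b and 4.27% for Slfn2 recur in another gene, most often Ms4a4c, Ms4a6c and Slfn4. In vitro Ms4a4c was at 0.0966 and 0.605 FPKM under the KO label and 0.167 and 0.28 FPKM under the WT label. The annotated span of Cd52 overlaps Crybg2 on the opposite strand, and 8.89% of its words recur in other genes. Whether the counting used strand is not given in the sources used here, and Crybg2 held 67 and 106 counts under the KO label and 48 and 59 under the WT label in vitro, against 2864 and 3510 for Cd52 under the KO label and 1253 and 990 under the WT label. In vivo Crybg2 held 1637 and 1361 counts under the KO label and 1617 and 907 under the WT label, against 11109 and 12166 for Cd52 under the KO label and 13280 and 9164 under the WT label. Crybg2 was thus larger beside Cd52 in vivo than in vitro, and in vivo both genes were lowest in WT-labelled replicate 2. The part of Crybg2 reads in the Cd52 level was not tested. For Lef1 the share was 13.7%, and the gene sharing the most words was the antisense gene Gm43352, which has no row in the tables, and for Cd2, Cd53 and Tcf7 it was 0%.

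Promoter sequence was looked at for genes that moved together in vitro, using the RefSeq entries on GRCm38.p6, the assembly of mm10. Of the 8 genes 6 have an entry, with 10 start sites in all. The 250 bases before the start are shown 5′ to 3′ for the MS4A pair, Slfn2 and Cd53, which with Cd52 changed most in vitro, with capitals marking every match to the motifs searched. They lie at chr19:11443308-11443557 (plus strand) for Ms4a4b, chr19:11518309-11518558 (plus) for Ms4a6b, chr11:83064862-83065111 (plus) for Slfn2 and chr3:106790150-106790399 (minus) for Cd53. For Ms4a6b the RefSeq start, 11518559, differs from the GENCODE start, 11516512, so its window lies inside the GENCODE span.
Ms4a4b: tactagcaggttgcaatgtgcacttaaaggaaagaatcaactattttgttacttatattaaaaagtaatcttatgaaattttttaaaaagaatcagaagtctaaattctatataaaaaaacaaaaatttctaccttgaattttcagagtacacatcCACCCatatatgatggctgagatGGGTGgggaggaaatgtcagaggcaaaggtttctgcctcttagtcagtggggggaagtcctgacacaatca
Ms4a6b: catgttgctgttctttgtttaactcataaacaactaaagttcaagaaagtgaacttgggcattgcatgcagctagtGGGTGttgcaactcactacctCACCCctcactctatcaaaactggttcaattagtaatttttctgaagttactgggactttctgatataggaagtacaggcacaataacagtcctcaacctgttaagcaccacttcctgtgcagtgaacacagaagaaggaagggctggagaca
Slfn2: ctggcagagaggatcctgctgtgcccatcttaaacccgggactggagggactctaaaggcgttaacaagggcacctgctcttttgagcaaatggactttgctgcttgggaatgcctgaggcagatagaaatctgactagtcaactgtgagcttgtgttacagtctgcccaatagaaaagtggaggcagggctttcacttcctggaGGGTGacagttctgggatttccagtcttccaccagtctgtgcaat
Cd53: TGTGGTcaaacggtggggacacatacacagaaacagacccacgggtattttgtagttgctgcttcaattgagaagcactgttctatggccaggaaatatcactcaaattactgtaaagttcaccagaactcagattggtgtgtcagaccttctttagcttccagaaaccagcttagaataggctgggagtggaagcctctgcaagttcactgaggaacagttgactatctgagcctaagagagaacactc
The motifs, searched on both strands, were CACCC, the core of sites bound by Krüppel-like factors, TGTGGT, the RUNX core, CTTTGAA and CTTTGAT of TCF-1 and LEF-1, TTCNNNGAA of STAT factors, which BCL6 sites resemble, and the interferon response element, GAAA followed after any 2 bases by GAAA. CACCC or its reverse complement occurs in at least 1 window of 5 of the 6 genes with an entry, all but Cd53, where 52% of 32841 promoter windows hold it. Lef1 has 4 of the 10 windows, of which 2 overlap and share their matches, and Tcf7 has 2. The count by gene and the share of single windows are therefore unlike measures. TGTGGT occurs once, at the far end of the Cd53 window, against 14% of all windows. The other 4 motifs were not found in any of the 10 windows. Of all windows 4.45% hold CTTTGAA, 3.21% hold CTTTGAT, 7.02% hold TTCNNNGAA and 2.98% hold the interferon response element. A match of letters is a description and does not show a bound site.

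**Figure D2:**
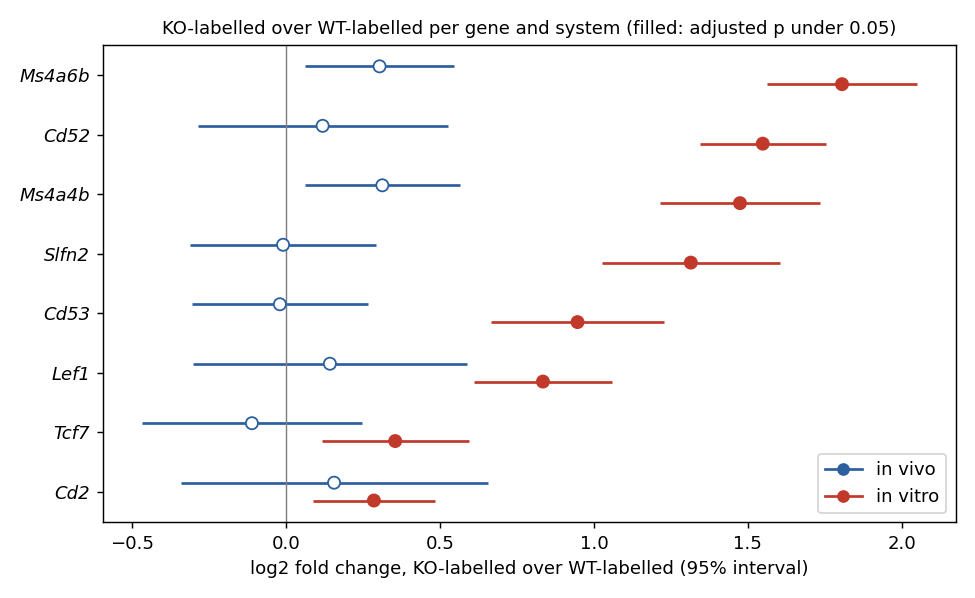
Log2 fold change of KO-labelled over WT-labelled libraries (x axis) for each gene (y axis, ordered by the in vitro value), with 95% intervals as lines; blue is in vivo, red in vitro, and filled points passed an adjusted p under 0.05. The in vitro points run from 0.29 for Cd2 to 1.81 for Ms4a6b and are all filled, and the in vivo points run from -0.11 for Tcf7 to 0.31 for Ms4a4b and are all open.

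In vivo, none of the 8 genes passed the test, where 0.284% of 10227 genes passed upward, 0.821% downward and 1.1% in either direction; 2 of the 8 had an unadjusted p under 0.05 with edgeR, as did 14.1% of all genes, and limma and DESeq2 also called none at an adjusted p under 0.05. The median log2 fold change was 0.13 over the 8 genes and -0.0036 over all genes. The 2 with the lowest p were the MS4A genes. Ms4a4b had 50.5 and 54.9 FPKM in the in vivo KO-labelled libraries and 43.3 and 41.1 FPKM in the WT-labelled ones, or 0.31 higher in log2 (SE 0.10; edgeR adjusted p = 0.239). Ms4a6b had 77.8 and 83.0 FPKM under the KO label and 63.8 and 65.7 FPKM under the WT label, or 0.30 higher in log2 (SE 0.10; edgeR adjusted p = 0.234). For these 2 genes alone both KO-labelled libraries lay above both WT-labelled ones, which was so for 22% of all genes.

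The other 6 genes overlapped between the labels in vivo. Cd52 was at 613 and 640 FPKM in the KO-labelled libraries and 669 and 480 FPKM in the WT-labelled ones, so the spread between WT-labelled libraries exceeded the gap between groups. Its log2 fold change was 0.12 (95% interval -0.29 to 0.52). Slfn2 was at 104 and 120 FPKM under the KO label and 121 and 103 FPKM under the WT label, with a log2 fold change of -0.0095 (-0.31 to 0.29). Cd53 was at 257 and 300 FPKM under the KO label and 289 and 272 FPKM under the WT label (-0.02, interval -0.30 to 0.26). For these 3 genes the upper bound in vivo lay below the lower bound in vitro, which was 1.34 for Cd52, 1.03 for Slfn2 and 0.67 for Cd53. A change of the in vitro size in Cd52, Slfn2 or Cd53 was thus outside the in vivo interval, while a small change in either direction was not. The sign in vivo turned when 1 library was left out, with values from -0.10 to 0.38 for Cd52, from -0.12 to 0.12 for Slfn2 and from -0.12 to 0.08 for Cd53.

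Cd2, Tcf7 and Lef1 varied in vivo by replicate number. Cd2 was at 172 and 268 FPKM in replicates 1 and 2 under the KO label and 188 and 204 FPKM under the WT label, and Lef1 at 38.4 and 53.3 FPKM under the KO label and 37.1 and 45.5 FPKM under the WT label. Tcf7 was at 435 and 458 FPKM under the KO label and 423 and 536 FPKM under the WT label. All 3 genes were higher in the library numbered 2 under each label. This was not particular to them, as Ms4a6b was too, at 77.8 and 83.0 FPKM under the KO label and 63.8 and 65.7 FPKM under the WT label. Over the genes tested in vivo, the deviations of same-numbered libraries correlated at 0.459. The share of all genes with this pattern was not counted. The fold changes were 0.16 (95% interval -0.34 to 0.65) for Cd2, 0.14 (-0.30 to 0.59) for Lef1 and -0.11 (-0.47 to 0.25) for Tcf7, and their direction also changed when 1 library was left out: Cd2 ran from -0.19 to 0.44, Lef1 from -0.10 to 0.35 and Tcf7 from -0.27 to 0.08.

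Other transcripts moved with the same libraries. Cd4, the coreceptor that the gate selects against, was at 22.8 and 78.4 FPKM in replicates 1 and 2 under the KO label and 26.8 and 55 FPKM under the WT label. Foxp3, the defining factor of regulatory T cells, was at 3.36 and 14.1 FPKM under the KO label and 8.12 and 17.3 FPKM under the WT label, and Ccr7, a homing receptor, at 25.9 and 62.3 FPKM under the KO label and 29.2 and 46.6 FPKM under the WT label. Of the 5 regulatory T genes listed, all were tested in vivo and none passed, where 1.1% of all genes did. Ctla4, Ikzf4 and Il2ra were, like Foxp3, higher in replicate 2 under each label. Capg went the other way, at 130 and 116 FPKM under the KO label and 125 and 74.5 FPKM under the WT label. The summed level of the 5 was 434 and 477 CPM (counts scaled to the library total) under the KO label and 454 and 432 under the WT label. Capg weighed most in this sum, with 18023 counts over the in vivo libraries against 3162 for Foxp3. Whether these cells take part in the spread of Cd2, Lef1 and Tcf7 was not tested.

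The difference between systems was tested directly as the in vivo minus the in vitro log2 fold change, over all 8 libraries and 9364 genes. Ms4a6b differed by -1.47 (SE 0.15; edgeR adjusted p = 0.000459) and Ms4a4b by -1.13 (SE 0.16; 0.00188). Cd52 differed by -1.41 (SE 0.21; 0.00236), Slfn2 by -1.30 (SE 0.21; 0.003) and Cd53 by -0.94 (SE 0.20; 0.0107). So 5 of the 8 changes were smaller in vivo than in vitro, where 9.81% of all genes passed in that direction, 6.57% in the other and 16.4% in either. For Cd53 the adjusted p was 0.058 without WT-labelled replicate 1 in vitro. Lef1 differed by -0.66 (95% interval -1.12 to -0.20; edgeR adjusted p = 0.0524), Tcf7 by -0.44 (-0.83 to -0.04; adjusted p = 0.118) and Cd2 by -0.10 (-0.61 to 0.41; adjusted p = 0.802).

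**Figure D3:**
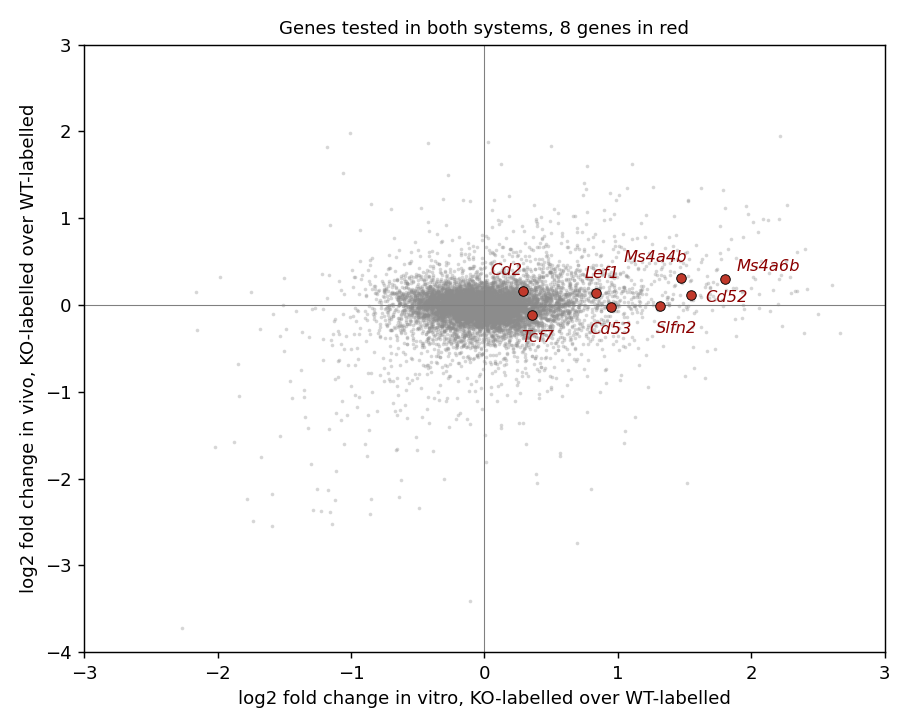
Log2 fold change in vitro (x axis) and in vivo (y axis), KO-labelled over WT-labelled, for the genes tested in both systems (grey points) with the 8 genes in red; 9 of 9364 genes lie outside the plotted range. The 8 red points are spread along the x axis from 0.29 to 1.81 and stay between -0.11 and 0.31 on the y axis.

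The level of most of the 8 genes was also unlike between systems. The tables were normalized separately and the providers differ, so these values are set side by side without a test. Averaged over the WT-labelled libraries, FPKM was 574 ± 134 in vivo and 47.5 ± 5.0 in vitro for Cd52, 42.2 ± 1.52 in vivo and 2.37 ± 0.407 in vitro for Ms4a4b, 64.8 ± 1.35 in vivo and 4.86 ± 0.578 in vitro for Ms4a6b, and 112 ± 13.1 in vivo and 21.3 ± 4.85 in vitro for Slfn2 (SD, n = 2 each). For these 4 genes the in vitro KO-labelled means, 136 ± 0.141 FPKM for Cd52, 6.43 ± 0.209 for Ms4a4b, 16.6 ± 1.37 for Ms4a6b and 51.7 ± 0.231 for Slfn2 (SD, n = 2 each), lay between the WT-labelled means of the 2 systems. The same was so for Cd53 and Tcf7. Cd53 was at 280 ± 11.7 FPKM in vivo and 109 ± 14.3 in vitro under the WT label, and 207 ± 37.4 in vitro under the KO label. Tcf7 was at 480 ± 79.5, 287 ± 25.2 and 360 ± 8.18 FPKM in the same order. Lef1 ran the other way, at 41.3 ± 5.93 FPKM in vivo and 75.0 ± 1.49 in vitro under the WT label, and in vitro KO-labelled libraries, at 131 ± 6.54 FPKM, were farther still from the in vivo level. Cd2 was at similar FPKM, 196 ± 11.6 in vivo and 179 ± 14.1 in vitro. In rank, Cd52 had 0.142% and 0.189% of listed genes above it in the WT-labelled libraries in vivo, against 9.21% and 7.24% in vitro.

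On the FPKM scale under the WT label in vivo, the order was Cd52, Tcf7, Cd53, Cd2, Slfn2, Ms4a6b, Ms4a4b and Lef1. The WT-labelled libraries of Cd52 and Tcf7 overlapped, as the 669 and 480 FPKM of Cd52 enclosed the 536 FPKM of Tcf7, and Ms4a4b overlapped Lef1. In vitro under the WT label the order was Tcf7, Cd2, Cd53, Lef1, Cd52, Slfn2, Ms4a6b and Ms4a4b, with no overlap between neighbouring genes. FPKM depends on the gene length used. In WT-labelled replicate 1 in vitro, the length implied by the counts was within 1% of summed GENCODE vM21 exons for 7 of 8 genes. For Tcf7 it was 3023 bp against 2625 bp. That match did not extend to WT-labelled replicate 2 in vitro for Lef1, where 10919 counts, 76.0 FPKM and a total of 15644567 imply a longer length. In WT-labelled replicate 1 in vivo, each of the 8 genes had a longer implied length than in WT-labelled replicate 1 in vitro. Examples are 1240 bp for Cd52, against 1187 bp of summed exons, and 3153 bp for Tcf7. The implied length takes the total over listed genes as the depth. The lengths printed come from 1 library of each system, so they do not compare the systems. Whether the length or the depth used for FPKM differed between libraries was not tested.

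The 8 genes were set beside lists of related genes. Over all genes tested, 20.1% rose and 17.7% fell in vitro, and 1.1% passed in either direction in vivo. Partners and targets in the TCF-1 and LEF-1 pathway had 18 of 20 genes with a row and 14 tested in vitro, of which 9 rose and 1 fell (edgeR adjusted p under 0.05), with a median log2 fold change of 0.41. Axin2, a negative regulator that Wnt signalling induces, was at 4.27 and 3.97 FPKM in the KO-labelled libraries and 0.991 and 1.22 FPKM in the WT-labelled ones, a log2 fold change of 1.93 (SE 0.15). Gata3, a factor of T cell lineage choice, rose by 1.66 (SE 0.10) and Bcl9l, a coactivator that binds β-catenin, by 1.30 (SE 0.09). The gene that fell was Tle4, a Groucho corepressor, at -0.66 (SE 0.08); it is named because it was the only fall, after its value was seen. Ctnnb1, which encodes β-catenin itself and was likewise picked out afterwards, had a log2 fold change of 0.11 (SE 0.09, adjusted p = 0.361). In vivo none of 14 tested genes of this list passed, and the median was 0.01.

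In the list of mature thymocyte and egress genes 13 of 14 tested genes rose in vitro and none fell, with a median log2 fold change of 0.98. The shares over all genes were 20.1% upward and 17.7% downward in vitro, and 1.1% in either direction in vivo. Itgb7, an integrin chain, rose by 2.42 (SE 0.17), S1pr1, the egress receptor, by 2.40 (SE 0.14) and Klf2, the factor that induces it, by 2.23 (SE 0.12). In vivo 1 of 20 tested genes passed, Emb, an adhesion molecule of the immunoglobulin superfamily, which fell to 12 and 13.1 FPKM under the KO label, against 20.7 and 22.7 FPKM under the WT label (log2 fold change -0.80, SE 0.10), while in vitro it was among the genes that rose (1.03, SE 0.12). Genes of the immature and double-positive thymocyte went both ways in vitro, where 7 of 12 tested rose and 3 fell. Arpp21 rose by 1.11 (SE 0.15), while Dntt, the template-free DNA polymerase of receptor rearrangement, changed by -1.01 (SE 0.17) and Cd24a, a GPI-anchored antigen lost on maturation, by -0.84 (SE 0.08).

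Relatives of the surface genes are given next, where 37.8% of all genes passed in either direction in vitro and 1.1% in vivo. Among CD2 and SLAM family receptors with their adaptors, 3 of 9 tested genes rose in vitro and none fell, with a median of 0.14; they were Pstpip1, an adaptor that binds CD2 (0.73, SE 0.10), Cd84 (0.64, SE 0.12) and Sh2d1a, the SLAM adaptor SAP (0.50, SE 0.11). Cd48, the mouse ligand of CD2, named after its value was seen, had a log2 fold change of 0.08 (SE 0.10). Among tetraspanins, the family of Cd53, 6 of 15 tested rose and 3 fell, with a median of 0.12; Cd82 had 1.08 (SE 0.10), Tspan14 0.69 (SE 0.09) and Cd9 0.69 (SE 0.16). Among GPI-anchored surface proteins 3 of 9 tested rose and 2 fell, with Thy1 at 2.40 (SE 0.16), the folate receptor relative Izumo1r at 1.60 (SE 0.09) and Cd24a as above. Of 3 tested Schlafen genes Slfn8 rose by 0.97 (SE 0.17), and Slfn3 (0.35, SE 0.16) and Slfn5 (0.14, SE 0.14) did not pass. No further MS4A gene reached the expression filter in vitro. In vivo, 0 of 11, 0 of 15, 0 of 5 and 0 of 4 tested genes of the CD2 and SLAM, tetraspanin, Schlafen and MS4A lists passed at an adjusted p under 0.05 with edgeR, and 1 of 13 GPI-anchored genes did, Art2b, an ADP-ribosyltransferase, which was at 4.98 and 6.52 FPKM under the KO label and 19.7 and 29.8 under the WT label (log2 fold change -2.12, SE 0.24). The 5 Schlafen genes tested in vivo had log2 fold changes of 0.13 for Slfn1, 0.39 for Slfn3, -0.06 for Slfn5, 0.21 for Slfn8 and 0.37 for Slfn9.

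**Figure D4:**
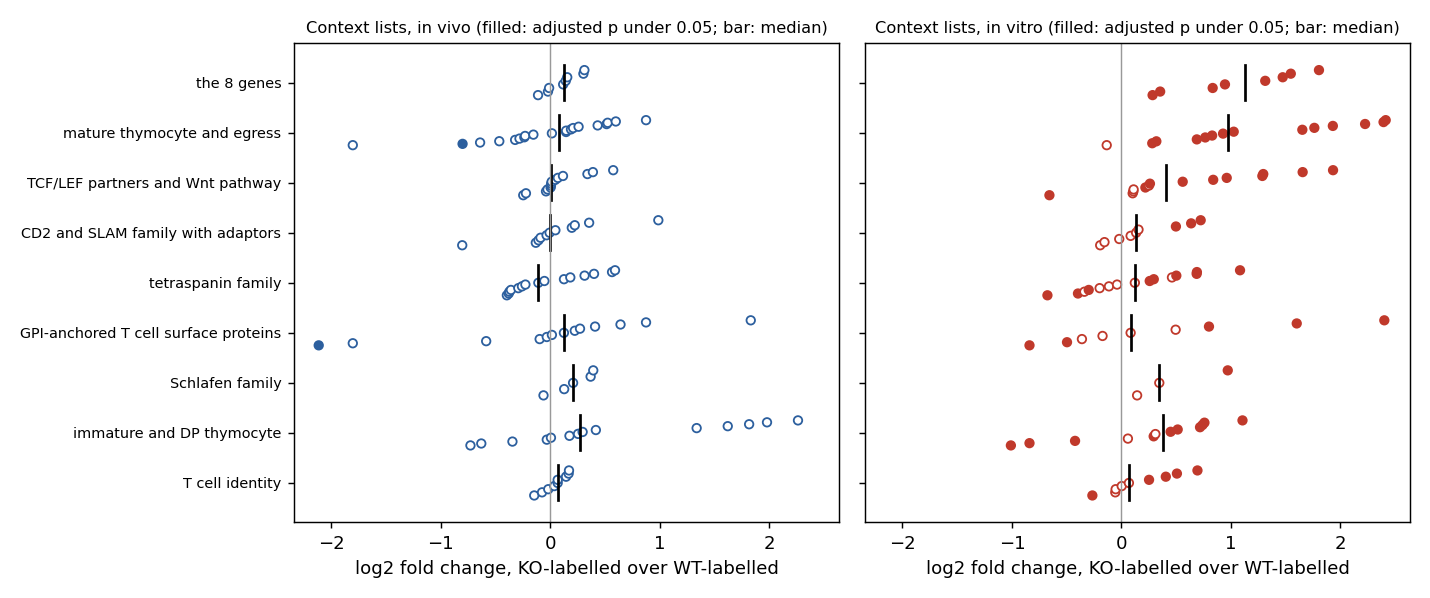
Log2 fold change of KO-labelled over WT-labelled libraries (x axis, the same scale in both panels) for the tested genes of each list (y axis), in vivo on the left and in vitro on the right; filled points passed an adjusted p under 0.05 and bars are medians. The median of the 8 genes was 0.13 in vivo and 1.13 in vitro, and that of the mature thymocyte list 0.08 and 0.98.

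Markers of other cell types were read beside these results, since B cells and myeloid cells also carry CD52 and CD53. Among all genes tested in vitro, 20.1% rose and 17.7% fell. In vitro, 2 of 7 B cell genes had a row, and both rose at low level: Cd79a was at 1.35 and 2.12 FPKM in the KO-labelled libraries and 0.886 and 0.924 FPKM in the WT-labelled ones, and Cd79b at 3.70 and 3.64 FPKM under the KO label and 2.07 and 1.92 FPKM under the WT label. Ms4a1 had no row there. Of 8 myeloid genes 4 had a row, with a summed level of 60.7 and 64.3 CPM under the KO label and 65.4 and 63.8 under the WT label, nearly all of it Cst3, and Lyz2 and Csf1r had no row. Stroma genes summed to 160 and 155 CPM under the KO label and 78.7 and 94.5 under the WT label, made up mainly of Epcam and Pecam1, both of which rose and which T cells can express; the keratin genes had no row. Of the 7 innate-like T and NK genes and the 7 gamma delta T genes 1 each had a row, and neither was tested. Erythroid genes summed to 3.97 and 12.5 CPM under the KO label and 2.04 and 11.6 under the WT label. Among regulatory T genes, 3 of 4 tested passed in vitro: Capg (2.03, SE 0.11) and Ctla4 (0.68, SE 0.24) rose and Il2ra, the interleukin-2 receptor alpha chain, fell (-1.98, SE 0.14). Foxp3 itself was at or below 0.468 FPKM in all 4 in vitro libraries. Their part in the in vitro rise of the 8 genes was not tested.

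In vivo, myeloid genes summed to 454 and 214 CPM in the KO-labelled libraries and 220 and 135 in the WT-labelled ones. Fcer1g weighed most in this sum, with 7063 counts over the in vivo libraries against 3306 for Lyz2 and 3272 for Cst3. Lyz2 was uneven, at 109 and 15.7 FPKM under the KO label and 25.6 and 10.7 under the WT label. Cst3 went slightly the other way, with a log2 fold change of -0.07. B cell genes summed to 73.2 and 50.2 CPM under the KO label and 37.0 and 9.90 under the WT label. Innate-like T and NK genes summed to 876 and 751 under the KO label and 784 and 541 under the WT label. Sox13, the gamma delta T gene with a row, was at 48.4 and 31.4 FPKM under the KO label and 21.0 and 15.4 FPKM under the WT label. Stroma genes summed to 117 and 119 CPM under the KO label and 124 and 149 under the WT label, and erythroid genes to 5.15 and 2.21 under the KO label and 2.43 and 1.93 under the WT label. No gene of these lists passed the test in vivo, where 1.1% of all genes did. The part of other cells in the in vivo values of Cd52, Cd53 and the MS4A genes was not tested.

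Outside the 8, the genes whose profile over all 8 libraries came closest to their median profile were Ski, Ets1, Map4k2, Acp5 and Rasal3, among 4282 genes with a mean of at least 10 FPKM in both systems. Likeness was the mean absolute difference of log2(FPKM + 1), each taken relative to the WT-labelled mean of its system, and it was 0.0561 for Ski, a corepressor of SMAD signalling, and 0.059 for Ets1, a transcription factor of lymphocytes. The nearest gene to Tcf7 was Aff3 (0.03), to Lef1 Etv3 (0.0577), to Cd52 Fxyd5 (0.0526), to Slfn2 Ppp1r18 (0.0587), to Cd53 Sp100 (0.0533), to Cd2 Cytip (0.0659), to Ms4a4b Arrb2 (0.0462) and to Ms4a6b Mbp (0.0523). Among the 8, Cd53 lay nearest to the median profile (0.072) and Cd2 farthest (0.29).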

How the data were processed

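The 8 libraries are of sorted mouse thymocytes, and RNA was isolated with TRIzol, per the labels' protocols. The authors deposited 2 values for every gene of a library, a read count and an FPKM value. Per the submitters' processing notes, mm10 was the build and the tools were Trim Galore 0.4.4, Bowtie2, featureCounts, Subread, RSEM and DESeq2; the notes name no roles, annotation or strand setting.

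From the deposited counts, KO-labelled and WT-labelled libraries were compared within a system by edgeR 4.0.16 (R 4.3.3; quasi-likelihood, TMM scaling, no replicate term), keeping genes that reached 1 FPKM in 2 or more of the 4 libraries. This left 9658 genes in vitro and 10227 in vivo. A joint model with the 4 group means gave the in vivo minus in vitro contrast. All tests are two-sided, with Benjamini-Hochberg adjustment over every gene tested and a threshold of 0.05. An SE is the absolute log2 fold change divided by the root of F. Levels are the FPKM as deposited.

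The 8 genes and the lists were chosen with earlier results of these data known. From each list the text names up to 3 genes with the largest change past the threshold, and others as markers or as picked after their values were seen. Chi-square over its degrees of freedom between the libraries of a group was 9.40 to 19.1, more than counting noise. Alternatives were other scalings and expression filters, limma 3.58.1 on log2 of FPKM, DESeq2 1.42.0, a replicate block, a joint fit, and each library left out in turn.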

Additional observations from a re-analysis of the deposited data

Results flagged for a closer look

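The KO-labelled over WT-labelled change of 5 genes differed between systems in a direct test (in vivo minus in vitro, edgeR adjusted p under 0.05). The difference in log2 fold change was -1.41 for Cd52, -1.13 for Ms4a4b, -1.47 for Ms4a6b, -1.30 for Slfn2 and -0.94 for Cd53. Leaving out each library in turn, it ran from -1.64 to -1.13 for Cd52, from -1.32 to -0.97 for Ms4a4b, from -1.60 to -1.36 for Ms4a6b, from -1.55 to -1.08 for Slfn2 and from -1.12 to -0.76 for Cd53. The systems differ in stimulation, in the cells sorted and in the sequencing provider, and these cannot be told apart.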

How the results depend on the processing

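With 2 libraries per group, each estimate rests on little replication. In vitro the count of the 8 genes past the threshold was 8 in the reported fit and from 6 to 8 over all settings, in every case upward; Cd2 and Tcf7 lost their calls as given above, with limma at either pseudocount, in a fit of all 8 libraries (adjusted p = 0.222 for Cd2 and 0.0562 for Tcf7) and in some fits without 1 library. In vivo 0 of the 8 passed in any setting run. For the difference it was 4 to 7 of 8, with Lef1 passing under DESeq2 (adjusted p = 0.00821), upper-quartile factors (0.0391), library totals (0.0410), without KO-labelled replicate 2 in vivo (0.0119) and without WT-labelled replicate 1 in vivo (0.0261), and Tcf7 in the last of these (0.0297). The count over all genes in vivo was 113 as reported, 505 with DESeq2 (260 rose, 245 fell), 68 and 75 with limma on log2(FPKM + 1) and log2(FPKM + 0.1), 379 with all 8 libraries in one fit, and from 7 to 279 when a library was left out. For the difference it was 1534, and as low as 533 without WT-labelled replicate 1 in vitro. The cause of these moves was not tested. The replicate numbers are shared between labels, but no label says that they mark a pairing. The deviations of same-numbered libraries correlated at -0.305 in vitro and 0.459 in vivo. With a replicate block, 6 of the 8 genes passed in vitro (Cd2 and Tcf7 lost, adjusted p = 0.0762 for Cd2 and 0.0679 for Tcf7), 0 in vivo and 6 for the difference (with Lef1, 0.0114), and 1078 genes passed in vivo. With the numbers crossed in vitro, an alternative chosen after seeing the data, 8 of the 8 genes and 4997 genes in all passed.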

Other observations

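In vivo, relatives of the MS4A genes that myeloid and B cells express were low and uneven. Ms4a6c was at 11.2 and 6.74 FPKM in the KO-labelled libraries and 6.50 and 4.37 in the WT-labelled ones, Ms4a6d at 4.0 and 1.48 under the KO label and 1.69 and 1.0 under the WT label, and Ms4a1, which encodes CD20, at 2.13 and 1.48 under the KO label and 0.879 and 0.191 under the WT label. None of them passed the test. Genes of the immature thymocyte also had high but uneven values in the KO-labelled libraries in vivo. Dntt was at 62.1 and 29.4 FPKM under the KO label and 14.3 and 8.76 under the WT label (log2 fold change 1.98, SE 0.39; edgeR adjusted p = 0.088), and Rag1 at 7.53 and 2.83 under the KO label and 1.24 and 0.903 under the WT label (2.26, SE 0.47; edgeR adjusted p = 0.102). Neither passed.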
